A study of Homo sapiens
Mus musculus and Homo sapiens with 2 samples.

Results

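The cells described here are A549 cells rich in transcripts of the G2 and M phases of the cell cycle. A549 is an established human lung adenocarcinoma line with epithelial character. The cells were chosen by measured values: in each cell the whole counts of TOP2A, MKI67, CENPF, CCNB1, ASPM and TPX2 were added up and divided by all whole counts of the cell, and the highest-scoring 1 of every 4 cells was taken within each treatment time. This gave 1849 high cells of 7404 A549 cells, and of 13711 cells in the series. The lowest-scoring 1 of every 2 cells within the same times, 3700 low cells, formed the comparison, and the 1855 cells between them entered neither group. The 6 genes were left out of every gene test, because they chose the cells.

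The series used sci-fate, a single-cell method that separates RNA made during labelling with the uridine analogue S4U from RNA made before it. All A549 cells carried S4U at 200 µM for the last 2 h, and they were treated with the synthetic glucocorticoid dexamethasone (100 nM in the treatment protocol, 101 nM in another label) for 0, 2, 4, 6, 8 or 10 h, the controls receiving ethanol. The labels show 1 culture per time, so the 6 times served as the replicates, cells of a time were added up, and the p-values measure only the spread between these 6 cultures. From 0 to 10 h the high cells numbered 287, 297, 261, 351, 292 and 361. Summed over the high cells, a time held 7930646 to 12194397 whole counts and 1514891 to 2573401 new counts, and the sums of low cells held 13239458 to 20043242 and 2774569 to 4743037. No untreated culture of a later time was used here, and each time had its own reverse transcription barcodes, so dexamethasone, time in culture and barcode set cannot be told apart.

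Cells that have copied their DNA pass through G2 and enter mitosis when cyclin B and CDK1, freed from inhibitory phosphates, drive chromosome condensation, spindle assembly and nuclear envelope breakdown. The genes for this machinery are transcribed late in the cycle under the MuvB complex with B-Myb (MYBL2) and FOXM1, and many of their proteins are destroyed by the anaphase-promoting complex as mitosis ends. S phase genes, by contrast, are driven by E2F factors at the entry to DNA replication. Of the 6 score genes, TOP2A encodes the topoisomerase that untangles sister DNA, MKI67 a protein coating mitotic chromosomes, CENPF a kinetochore protein, CCNB1 cyclin B1, ASPM a spindle pole protein, and TPX2 a spindle assembly factor that activates Aurora A.

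The score, as the values that chose the cells, is given as a description with no test. In counts-per-million (CPM) of a cell's whole counts, the median of the high cells was 9921, 10043, 9454, 9712, 9347 and 9099.7 from 0 to 10 h. In the low cells it was 1639, 1828, 1559, 1231, 732 and 532. The high cells thus stayed within a narrow range while the low cells of the later times held fewer of these transcripts. The 6 genes made up 0.509% of all whole counts of the A549 cells, and the median high cell of a time carried 272 to 324 of their counts, against 12 to 47.5 in the median low cell.

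Because the highest-scoring cells were taken anew at each time, the score needed for membership moved. The lowest member and the highest cell outside had 8062 and 8057 CPM at 0 h, and 7255 and 7252 at 10 h, so the edge ran through a continuous range. The share of cells above the lowest member of 0 h was 24.9, 24.9, 23.5, 22.9, 22.1 and 18.3% from 0 to 10 h. The share at 0 h is fixed by the rule, and the exact 95% binomial interval at 10 h, 16.3 to 20.3%, covers the counting of cells and not the spread between cultures. The share below the highest low cell of 0 h went from 49.96% at 0 h, again fixed by the rule, to 56.4% at 10 h.

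**Figure D1:**
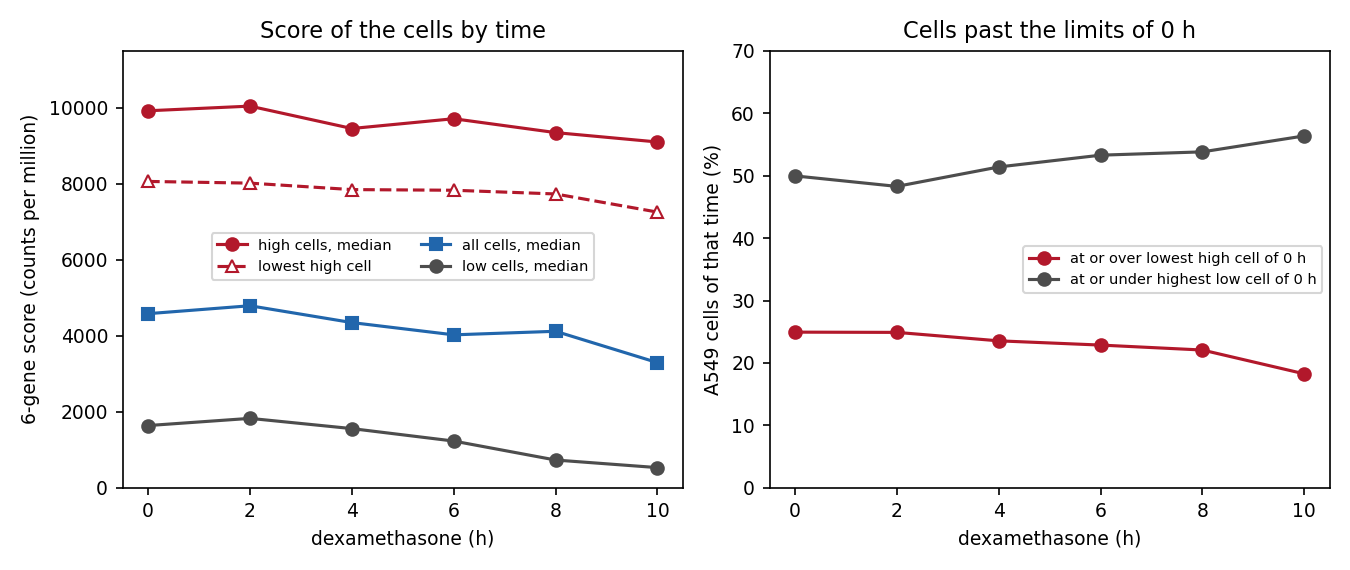
Left, 6-gene score (CPM) against hours of dexamethasone: medians of high, low and all A549 cells, and the score of the lowest high cell. Right, percentage of the A549 cells of each time past the limits set at 0 h, where the rule fixes both percentages. The medians of the high cells lie between 9099.7 and 10043 CPM, while those of the low cells go from 1639 at 0 h to 532 at 10 h.

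The 6 genes contributed unequally within a high cell. TOP2A gave a median of 31.0% of the 6-gene counts (quartiles 27.8 and 34.5%), MKI67 22.4% (18.9 and 25.9%), CENPF 21.1% (18.6 and 24%), ASPM 9.09% (7.26 and 10.9%), TPX2 8.87% (7.50 and 10.4%) and CCNB1 6.32% (4.91 and 7.94%). Membership therefore leaned on TOP2A, MKI67 and CENPF. When each gene was given equal weight, 91.9% of the cells chosen were members by the original score. When every cell was first thinned to 10000 whole counts, 92.0% were.

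High cells held more counts per cell than low cells at every time. Their median whole count per cell was 29613 ± 2116 (SD, n = 6 times), against 25360 ± 1423 in low cells, and was higher in 6 of 6 times. The gap was 835 counts at 0 h and 6584 at 10 h. Against all other A549 cells, high cells were higher in this measure in 5 of 6 times. They also had 7021 ± 213 detected genes per cell against 6626 ± 185, again in 6 of 6 times, but at an equal 10000 counts the 2 groups had 4241 and 4238. The exact two-sided sign-flip permutation test gave p = 0.03125 for each of the unthinned differences, the smallest that 6 pairs allow, and 0.0521 after adjustment over the 10 cell measures compared. Among the high cells, 34.9% were also among the 1849 cells richest in whole counts within their times, against 17.6% of low cells. The median of the deposited doublet score was 0.0630 ± 0.0037 in high and 0.0621 ± 0.0032 in low cells, a difference that did not pass (exact permutation p = 0.5, adjusted 0.556).

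High cells carried the markers of the A549 line, although 9 of 14 of these were lower and 1 higher than in low cells, against 22.9% and 24% of all genes tested. The summed level of 14 A549 markers (keratins, aldo-keto reductases, aldehyde dehydrogenases and others) was 27150 to 32754 CPM in high cells and 30485 to 37631 in low cells. Markers of other cell types were near 0: 10 fibroblast markers together gave 17.9 to 24.6 CPM in high and 22.8 to 31.7 in low cells, 8 leukocyte markers 6.66 to 12.3 and 9.12 to 13.7, and 7 endothelial markers 5.36 to 6.94 and 4.84 to 7.07. CLDN5 of endothelium was at 0 counts in all high cells together.

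Beyond the 6 genes, most genes of the mitotic machinery were higher in the high cells. Of 16461 genes tested in whole RNA with edgeR's quasi-likelihood test, with the time as a block and Benjamini-Hochberg adjustment, 3948 (24%) were higher and 3771 (22.9%) lower in high cells. Most of these differences were small, with a median size of 0.33 on the log2 scale over the 7719 called. More than 2-fold differences were seen for 234 genes higher and 267 lower. The lists below are therefore read by the size of their differences, with the median of all genes at -0.01 on the log2 scale. The cells were chosen on whole counts of the same libraries, so a gene that varies with the 6 differs by the choice itself, and an adjusted p says how regularly a difference recurred over the 6 times. A sum over cells does not tell more RNA per cell from more cells with the transcript. Repeated on cells scored at equal depth, 7265 of the 7719 genes were called in the same direction. Fewer were with the tenth of cells scoring highest as members (5879), with DESeq2 (5577) and without the block (5172).

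Kinases, phosphatases and cyclins of mitotic entry were higher in 18 of 21 tested genes and lower in 0, with a median log2 difference of 2.32. PLK1, the Polo-like kinase that acts from centrosome maturation to cytokinesis, had 295, 316 and 322 CPM as its lowest, median and highest value over the 6 times in high cells, and 11.5, 25.4 and 37.9 in low cells. Its groups lay far apart, by 3.79 ± 0.16 (SE) on the log2 scale (edgeR adjusted p = 1.9e-09). AURKA, the centrosome and spindle pole kinase, had 309, 329 and 390.2 CPM in high cells and 22.2, 34.1 and 47.9 in low cells, a difference of 3.4 ± 0.08. CDK1, the catalytic partner of cyclin B, stood at 299, 331 and 360 against 41.8, 96.5 and 109.9 CPM, which is 2.07 ± 0.16.

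Partners of CDK1 were higher too. CCNA2, cyclin A2, which acts in S phase and G2, was higher by 2.75 ± 0.14, CCNB2, a second B-type cyclin, by 2.17 ± 0.06, and CKS2, a small CDK-binding subunit, by 2.5 ± 0.07. NEK2, which separates the centrosomes, was higher by 2.99 ± 0.10, and BUB1, the checkpoint kinase of the kinetochore, by 2.54 ± 0.10. WEE1, the kinase that holds CDK1 inactive, was higher by 0.89 ± 0.08. Its relative PKMYT1 did not pass, at -0.01 ± 0.13, with 37.2 to 43.6 CPM in high and 25.1 to 59.2 in low cells, which overlap.

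Kinesins and spindle proteins were the most uniform list. All 28 tested were called higher, against 24% of all genes tested, with a median difference of 2.46. In each of the 28 every high-cell value lay above every low-cell value, a separation that was not counted over all genes. Groups were also separate in 31 of 64 cytosolic ribosomal protein genes, whose median difference was -0.06. CENPE, the kinetochore motor that brings chromosomes to the spindle equator, had 663, 691 and 766 CPM in high cells and 40.7, 69.1 and 91.9 in low cells (3.52 ± 0.10). HMMR, a spindle-associated hyaluronan receptor, had 345, 372 and 393 against 16.4, 33.9 and 45.1 CPM (3.64 ± 0.12). KIF20A, a kinesin of the central spindle, had 141, 149 and 162 against 12.7, 18.0 and 20.6 CPM (3.19 ± 0.08). At the lower end of the list stood KIF5B, the conventional kinesin that carries cargo in cells of every phase, at 0.95 ± 0.03. CKAP5, a microtubule polymerase, was higher by 1.64 ± 0.04, and PRC1, which bundles antiparallel microtubules of the midzone, by 2.20 ± 0.10.

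**Figure D2:**
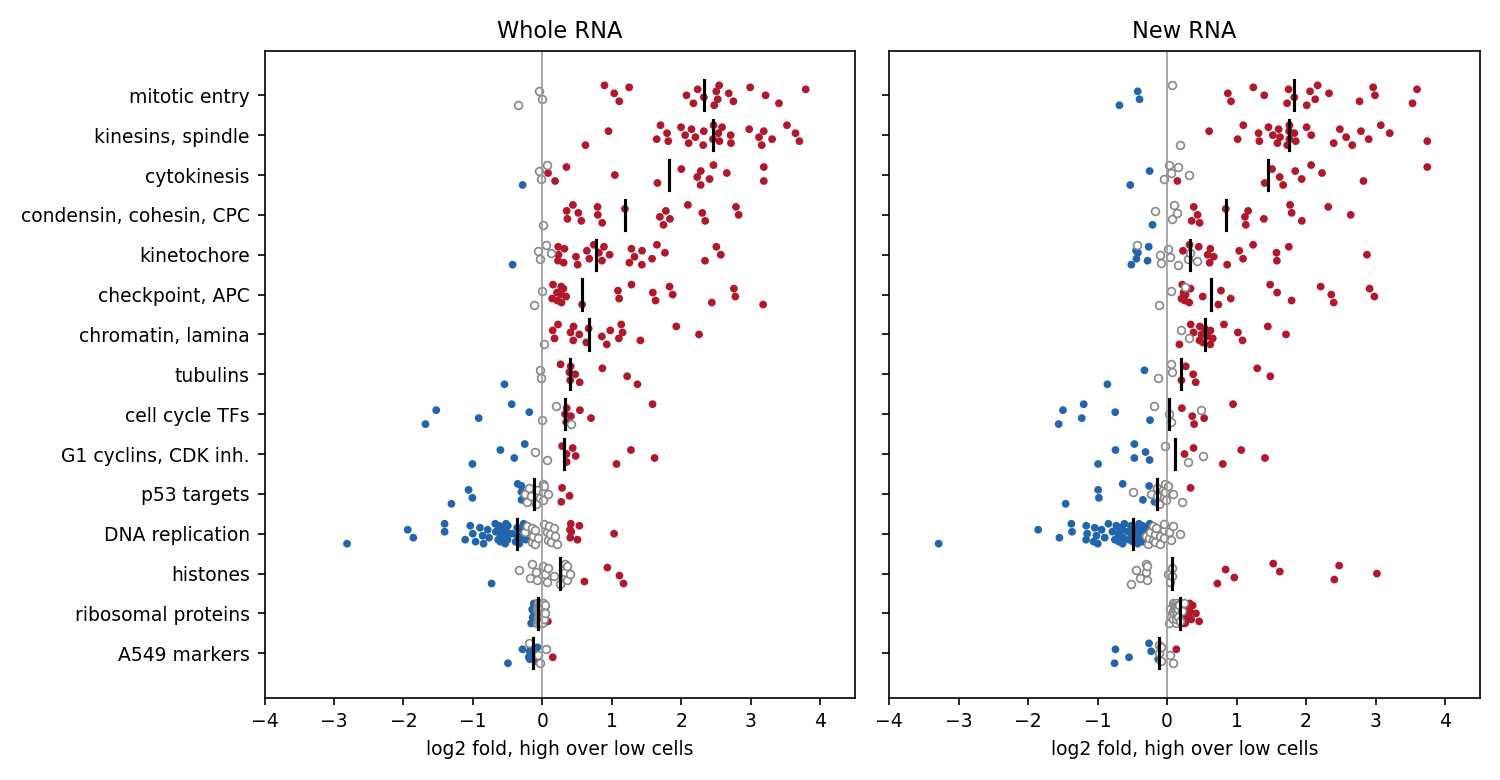
Log2 difference between high and low cells (x axis) in whole RNA (left) and new RNA (right), 1 point per tested gene of each list (y axis), filled red where called higher, filled blue where called lower and open where not called, with a bar at the median of the list. All 28 kinesin and spindle genes lie to the right of 0 in whole RNA, while the DNA replication (S phase) list has its median at -0.36.

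Centromere and kinetochore genes were more mixed. They were higher in 25 of 30 and lower in 1, with a median of 0.78, well under that of the kinesins. CASC5 (the KNL1 scaffold of the outer kinetochore) was higher by 2.57 ± 0.13, and CENPA, the centromeric histone variant, by 2.34 ± 0.05. The member called lower was DSN1, a subunit of the MIS12 complex, at -0.43 ± 0.12. Of 23 spindle checkpoint and anaphase-promoting complex genes, 21 were higher and 0 lower, with a median of 0.57. UBE2C, the ubiquitin-conjugating enzyme of that complex, reached 188, 199.6 and 213 CPM in high cells against 9.71, 26.9 and 35.6 in low cells (3.18 ± 0.18). CDC20, its activator in mitosis, was higher by 2.44 ± 0.08, and PTTG1, the securin that the complex destroys, by 1.59 ± 0.04. CDC27, a subunit of the complex itself, was higher by 1.09 ± 0.03.

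Genes that shape the mitotic chromosome were higher as well. In the list of condensin, cohesin and chromosomal passenger genes, 18 of 19 were higher and 0 lower (median 1.19). Among them were SMC4 of condensin (1.69 ± 0.09), RAD21 of cohesin (1.19 ± 0.04) and BIRC5, the survivin subunit of the passenger complex (1.74 ± 0.08). The largest difference, 2.82, was that of CDCA3, which was listed with them but is not a subunit of these complexes. Counts here and below are of the list with CDCA3. In the cytokinesis list 14 of 18 were higher and 1 lower (median 1.83). ANLN, the anillin that organises the contractile ring, had 699.7, 717 and 759 CPM in high cells against 91.5, 174 and 209 in low cells (2.28 ± 0.12), while RHOA, the small GTPase that starts the ring and acts in cells of every phase, differed by only 0.08 ± 0.03. In the chromatin and nuclear envelope list 18 of 19 were higher and 0 lower (median 0.67), led by HMGB2, a DNA-bending protein, at 2.25 ± 0.10. LMNA, which encodes lamins A and C, was higher by 0.17 ± 0.03.

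Tubulin genes were mostly higher, by differing amounts. Of 12 tested, 9 were higher and 1 lower, with a median of 0.40. TUBA1C and TUBB4B were higher by 1.37 ± 0.05 and 1.22 ± 0.06, TUBB and TUBA1B by 0.54 ± 0.05 and 0.47 ± 0.05, and TUBA1A was lower, at -0.55 ± 0.06. Tubulin genes are near-identical over much of their coding sequence, so the division of reads between them is uncertain.

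Transcription factors of the cycle went both ways, with 7 of 15 higher and 5 lower. FOXM1 had 177, 183 and 199 CPM in high cells and 41.3, 70.3 and 88.1 in low cells (1.58 ± 0.11). MYBL2 differed little in whole RNA, at 0.34 ± 0.09, with 103 to 124 CPM against 63.3 to 116, so its groups overlapped. E2F1 and E2F2, activators of S phase genes, were lower, at -1.68 ± 0.09 and -1.53 ± 0.11.

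S phase genes were mostly lower in high cells. Of 63 tested, 38 were lower and 7 higher, with a median of -0.36. PCNA, the sliding clamp of the replicative polymerase, had 229.9, 252 and 258 CPM in high cells and 315, 542 and 627 in low cells (-0.90 ± 0.10). MCM6, a subunit of the replicative helicase, was lower at -1.41 ± 0.07, and CDC6, which loads that helicase, at -1.41 ± 0.10. The genes called higher included enzymes of nucleotide supply: RRM2, the small subunit of ribonucleotide reductase, had 484, 581 and 656 CPM in high cells against 201, 324 and 365 in low cells (1.03 ± 0.14), and RRM1 and TK1 were higher by 0.50 ± 0.08 and 0.42 ± 0.09.

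Among genes with at least 600 whole counts, PIF1, a DNA helicase, had the largest difference in the higher direction, with 21.1, 24.8 and 27.8 CPM in high cells and 0.216, 0.713 and 1.44 in low cells (5.00 ± 0.21). PSRC1 (3.70 ± 0.14), GAS2L3 (3.49 ± 0.08), KIF14 (3.31 ± 0.13), FAM83D (3.22 ± 0.10), CCNF (3.21 ± 0.13) and DEPDC1 (3.19 ± 0.13) completed the 12 largest with PLK1, HMMR, CENPE, AURKA and KIF20A. CCNF encodes cyclin F, a ubiquitin ligase subunit that removes the RRM2 protein in G2. The 8 largest in the lower direction were led by FAM111B, at 5.97, 7.71 and 10.5 CPM in high cells against 45.4, 72.2 and 98.8 in low cells (-3.03 ± 0.09). CCNE2 and CCNE1, the E cyclins of the G1 to S transition, were lower at -2.81 ± 0.10 and -1.94 ± 0.12, and UNG, the uracil DNA glycosylase, at -1.86 ± 0.06. MAP1A (-1.95 ± 0.27), MAGEH1 (-1.75 ± 0.16) and EPHA5 (-1.71 ± 0.19) completed them with E2F1. The groups of MAP1A overlapped.

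Cell by cell, the lists differed in how far they set high and low cells apart. After thinning to 10000 counts, which 1815 high and 3594 low cells reached, kinesin and spindle genes took 7000, 8200 and 9300 CPM (lower quartile, median, upper quartile) in high cells and 1000, 1700 and 2600 in low cells. The upper quartile of low cells thus lay far below the lower quartile of high cells. For kinetochore genes the quartiles were 2100, 2600 and 3100 against 700, 1400 and 2100, and 26.2% of low cells reached the lower quartile of high cells. For the S phase list the high cells were narrow, at 4400, 5100 and 6000, and the low cells wide, at 2600, 6600 and 9700, so that 64.1% of low cells lay above the lower quartile of high cells. Of the high cells 4.54% were among the 1849 cells highest in the S phase list within their times, against 36.1% of the low cells.

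The S phase list did not keep one order over the times. Its summed whole RNA level in high cells was 5425, 5389, 5425, 5525, 5349.7 and 5201 CPM from 0 to 10 h. In low cells it was 8012, 8106, 7572, 6592, 5489 and 4399 CPM at the same times. High cells were therefore the lower group in the first 5 times and the higher group at 10 h, and the S phase share of counts differed by an amount that did not pass (0.539 ± 0.011% against 0.670 ± 0.150%, SD, n = 6; exact permutation p = 0.09375, adjusted 0.117). Replication-dependent histone genes crossed earlier, with high cells the higher group from 6 h on, at 525, 499, 561, 633, 693 and 714 CPM in high cells against 753, 766, 749.5, 622, 515 and 407 in low cells. Kinesin and spindle genes did not cross: they went from 8729.9 CPM at 0 h to 7937 at 10 h in high cells, and from 2337 to 1437 in low cells.

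**Figure D3:**
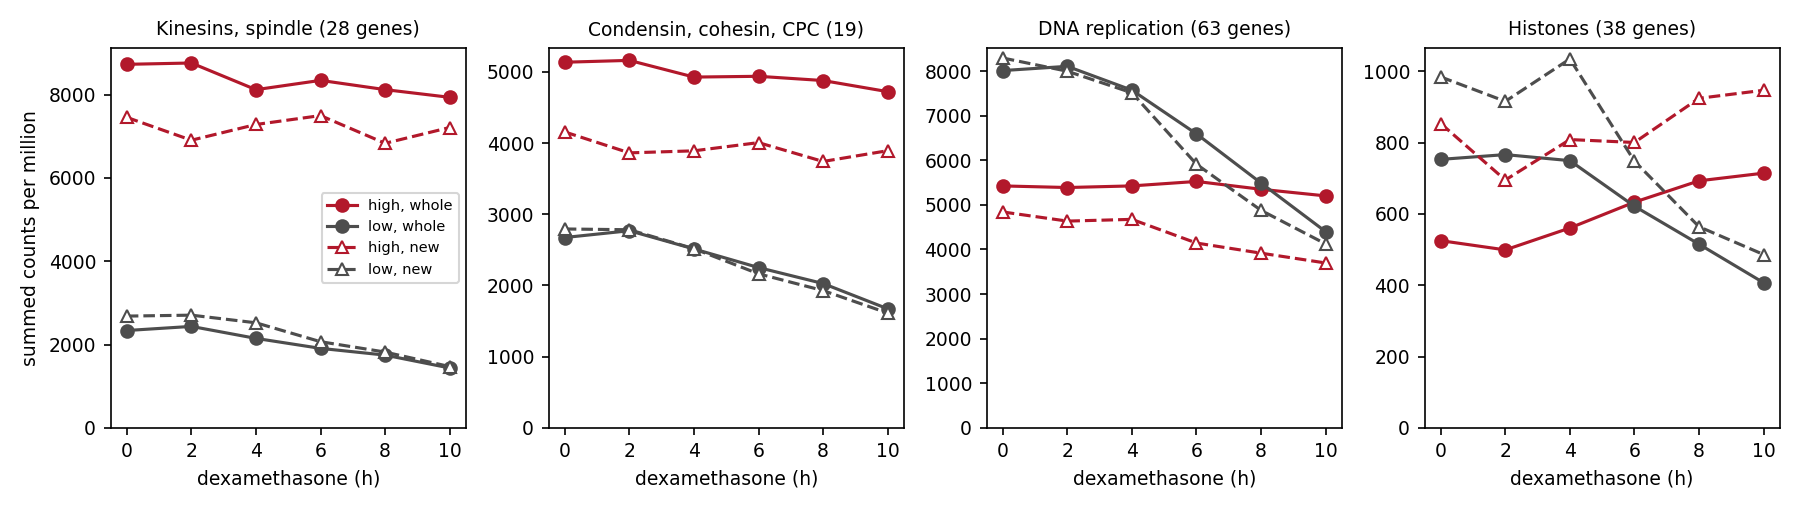
Summed level (CPM) of 4 gene lists against hours of dexamethasone, in high (red) and low (grey) cells, in whole RNA (filled circles) and new RNA (open triangles), 1 point per time. The kinesin and spindle lines stay apart at every time, while the whole RNA lines of the DNA replication (S phase) list meet near 8 h and have changed order at 10 h (5201 against 4399 CPM).

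In newly made RNA the mitotic lists were less uniform. Of 12777 genes tested in new counts, 2179 (17.1%) were higher and 2574 (20.1%) lower in high cells. Of 28 kinesin and spindle genes, 27 were higher and 0 lower, with a median of 1.76 against 2.46 in whole RNA. Mitotic entry genes were higher in 17 and lower in 3 (median 1.83), and condensin, cohesin and passenger genes higher in 14 and lower in 1 (median 0.84). Of 22 checkpoint and anaphase-promoting complex genes 19 were higher and 0 lower, of 19 chromatin and nuclear envelope genes 17 and 0, and of 18 cytokinesis genes 11 and 2. Kinetochore genes were higher in 15 of 30 and lower in 6 (median 0.33), tubulins higher in 6 of 11 and lower in 2, and the transcription factors higher in 5 of 15 and lower in 6 (median 0.03). The S phase list was lower in 45 and higher in 0 (median -0.49): RRM2, RRM1 and TK1, higher in whole RNA, stood at 0.18 ± 0.13, -0.21 ± 0.09 and -0.52 ± 0.10 in new RNA, of which TK1 was called lower. MYBL2, slightly higher in whole RNA, was lower in new RNA at -1.20 ± 0.13.

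The genes with the largest differences in new RNA were PIF1 (5.31 ± 0.25, with 1 low-cell sum at 0), KIF20A (3.74 ± 0.19), PLK1 (3.60 ± 0.18) and NEK2 (3.53 ± 0.14). KIF20A had 63.8, 80.8 and 96.0 new CPM in high cells and 1.96, 7.01 and 9.12 in low cells. PSRC1, TROAP, the clone-named gene CTD-2510F5.6 and HMMR followed, at 3.20, 3.19, 3.09 and 3.08. In the lower direction CCNE2 (-3.29 ± 0.13) and FAM111B (-3.25 ± 0.13) again led, ahead of TTPA (-2.89 ± 0.28), EPHA5 (-2.05 ± 0.23), HSD11B2 (-2.01 ± 0.29) and SNX10 (-2.0 ± 0.17). The groups of HSD11B2 overlapped, with 0 to 10.9 new CPM in high and 2.08 to 29.2 in low cells. HSD11B2 is on the list of glucocorticoid-induced genes and had 0 new counts in high cells at 0 h.

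The share of RNA that was new was lower in high cells. Over all genes it was 20.0 ± 0.71% in high and 22.0 ± 1.08% in low cells, lower in 6 of 6 times (exact permutation p = 0.03125, adjusted 0.0521). Within exonic counts it was 12.1 ± 0.65% against 13.5 ± 0.74%, and within intronic counts 65.8 ± 0.97% against 66.9 ± 1.07%, each lower in 6 of 6 times. Intronic counts were 14.6 ± 0.35% of all counts in high and 15.9 ± 0.86% in low cells, so fewer unspliced reads went with the lower new share, and their part in it was not tested.

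Gene by gene, the ratio of new to pre-existing RNA was compared between high and low cells relative to all other genes. Unlike the tests of whole and new RNA, this one did not pair the high and low cells of a culture. Of 15542 genes, 908 (5.84%) had a higher ratio and 1376 (8.85%) a lower one in high cells. When each culture was left out in turn, 581 to 743 had a higher ratio, with 589 without the 8 h and 581 without the 10 h culture. With the tenth of cells scoring highest as members the balance turned, with 941 genes higher and 627 lower, and against all other A549 cells 410 were higher and 1240 lower. Mitotic lists differed in how many members had a lower ratio. Among kinesin, entry, kinetochore and condensin lists most did: 25 of 28 kinesin and spindle genes had a lower ratio and 1 a higher one, 14 of 21 mitotic entry genes lower and 2 higher, 19 of 30 kinetochore genes lower and 1 higher, and 15 of 19 condensin, cohesin and passenger genes lower and 0 higher. The other mitotic lists were more mixed, with 9 of 18 cytokinesis genes lower and 1 higher, 7 of 19 chromatin and nuclear envelope genes lower and 1 higher, 6 of 23 checkpoint and anaphase-promoting complex genes lower and 3 higher (median -0.03), and 4 of 12 tubulins lower and 1 higher. Of 15 transcription factors of the cycle, 6 were lower and 0 higher. The kinesin and spindle genes together were 17.2% new in the median high-cell sum and 24.3% in the median low-cell sum. MELK, a kinase of the late cycle, was 14.2% new in high and 29.7% in low cells, and CCNA2 15.7% against 27.6%. HMMR, CENPE and AURKA, all among the largest differences in whole RNA, had a lower new percentage in high cells at each of the 6 times.

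**Figure D4:**
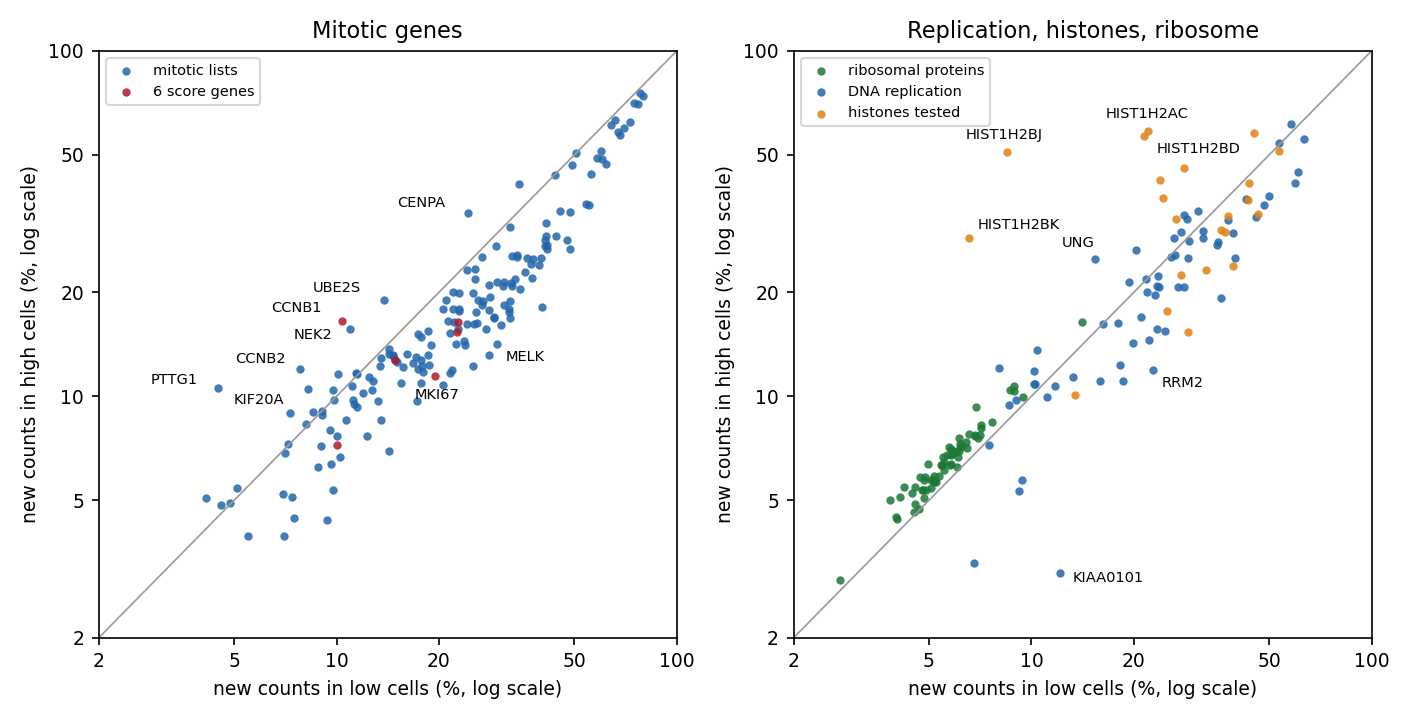
Percentage of counts that were new, in high cells (y axis) against low cells (x axis), both on log scales, 1 point per gene, as medians over the 6 times. Left, mitotic lists and the 6 score genes, whose whole counts chose the cells. Right, DNA replication, histone and ribosomal protein genes. Most mitotic genes lie below the line of equality, and PTTG1 (10.6 against 4.48%) lies above it.

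A few mitotic genes did the opposite. PTTG1 was 10.6% new in high cells and 4.48% in low cells, and its log2 ratio was higher by 1.51 ± 0.10 (edgeR adjusted p = 1.3e-08). Its values of 9.5 to 11.7% and 3.52 to 5.2% did not overlap. CENPA (33.9 against 24.4% new), CCNB2 (12 against 7.81%), UBE2S, the chain-elongating enzyme of the anaphase-promoting complex (19 against 13.7%), NEK2 (15.7 against 11%) and KIF20A (10.5 against 8.25%) were also higher in ratio, in 6 of 6 times each. TUBB4B and LMNA, of the tubulin and nuclear envelope lists, were higher by 0.37 ± 0.07 and 0.53 ± 0.08. For the score genes no test was made, because their whole counts chose the cells and are also the base of these percentages. As a description only, CCNB1 was 16.5% new in high and 10.4% in low cells. The others were less new in high cells: TOP2A (7.24 against 10.0%), MKI67 (11.4 against 19.5%), CENPF (12.7 against 14.9%), ASPM (15.3 against 22.6%) and TPX2 (16.4 against 22.8%).

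Histone genes led the ratio differences in the higher direction among genes with at least 300 new counts. HIST1H2BK was 28.8% new in high and 6.56% in low cells (2.77 ± 0.15), HIST1H2BD 56.7% against 21.4% (2.44 ± 0.14) and HIST1H2AC 58.6% against 22.0% (2.38 ± 0.16). HIST1H2BJ, with fewer counts, was 51.0% against 8.49% (3.43 ± 0.32). For HIST1H2BK this came with a lower whole level, 35.8 to 45.6 CPM in high against 64.2 to 72.3 in low cells, so its new RNA was higher while its total was lower. Replication-dependent histone messages mostly end without a poly(A) tail and the libraries were primed with oligo-dT. Histone genes have near-identical copies, so reads may be divided uncertainly between them, and over all 22 tested 8 were higher in ratio and 4 lower. SNHG10, a small nucleolar RNA host gene annotated as antisense, was 43.5% new against 11.7% (2.38 ± 0.21), the clone-named lincRNA RP11-304L19.5 45.1% against 15.4% (2.29 ± 0.17), and TROAP, a protein of the spindle poles, 26.2% against 8.44% (2.19 ± 0.16). The sources used here do not say whether counting used strand, so reads of SNHG10 and its partner cannot be told apart.

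In the lower direction stood KIAA0101, a PCNA-binding protein of S phase, at 3.07% new in high and 12.1% in low cells (-2.0 ± 0.12), although its whole level overlapped between the groups. SYNE2, which ties the nuclear envelope to the cytoskeleton, was 5.91% against 16.7% (-1.59 ± 0.12). COCH (2.58 against 8.26%), EFEMP1, an extracellular matrix protein (7.55 against 23.5%), TTPA (-1.77 ± 0.41) and ZNF804A (-2.32 ± 0.50) completed the set. TTPA and ZNF804A did not pass with the tenth of cells scoring highest as members (edgeR adjusted p = 0.0619 and 0.0549).

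Cytosolic ribosomal protein genes moved the other way from most mitotic genes. They were slightly lower in whole RNA, with 28 of 64 lower and 1 higher, against 22.9% and 24% of all genes tested. Their whole RNA differences lay between -0.16 and 0.08 (median -0.06). In new RNA 40 were higher and 0 lower (median 0.18), against 17.1% and 20.1% of all genes. In ratio 58 were higher and 0 lower (median 0.33), against 5.84% and 8.85%. As a list they were 6.01 to 6.97% new in high cells and 5.35 to 5.92% in low cells, ranges that do not overlap.

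Most of the genes known to be induced by glucocorticoids had more new RNA at 2 to 10 h of dexamethasone than at 0 h in high cells. The 5 treated cultures were compared with the single culture at 0 h, whose spread was not measured but assumed equal to that of the treated ones. The calls below thus rest on 1 untreated culture and on no separation of dexamethasone from time in culture or barcode set. The treated cultures differ in hours of treatment and are not replicates of 1 condition, so any change from 2 to 10 h counted as spread. In whole RNA of high cells the summed glucocorticoid-induced list, for example, went from 2555 CPM at 2 h to 5028 at 10 h. In whole RNA 82 of 16918 genes (0.485%) were higher and 30 (0.177%) lower, and in new RNA 392 of 13075 (3.00%) higher and 230 (1.76%) lower. These counts depended on single cultures: without the 2 h culture they became 611 and 450 in whole RNA and 718 and 487 in new RNA, and leaving out the 4, 6 or 8 h culture gave as few as 31 and 9 in whole RNA and left 122 to 148 lower genes in new RNA. The list of genes known to be induced by glucocorticoids was chosen with earlier results of these data known, so its counts are a description. Of 38 of its genes tested, 31 were higher and 0 lower in new RNA, with a median of 2.39 (2.07 with genes absent at 0 h held at the bound that 3 counts give). In whole RNA 17 of 39 were higher and 0 lower. In the low cells of the same cultures 32 of 38 were higher in new RNA, with a median of 2.55, where 494 of 14997 genes (3.29%) were higher and 224 (1.49%) lower. In whole RNA of low cells 17 of 40 were higher, where 100 of 19516 genes (0.512%) were higher and 42 (0.215%) lower.

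Single targets showed the time course. FKBP5, a cochaperone of the glucocorticoid receptor, had 62.8, 739, 1008, 981, 1020.0 and 937 new CPM in high cells from 0 to 10 h, and 73.8, 757, 1008, 926, 908 and 882 in low cells. TSC22D3, which encodes GILZ, had 5.61, 150.4, 209.9, 204, 229 and 243 in high and 9.23, 189, 252, 233, 232 and 273 in low cells. PER1, a clock gene, had 8.41, 100.1, 135, 87.4, 101 and 92.5 in high and 11.3, 97.7, 101, 95.1, 88.2 and 84.5 in low cells. Each was low at 0 h and high from 2 h on in both groups. The log2 differences in new RNA were 3.96 ± 0.22 for FKBP5, 5.25 ± 0.38 for TSC22D3 and 3.66 for PER1 in high cells, and 3.67, 4.74 and 3.11 in low cells.

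**Figure D5:**
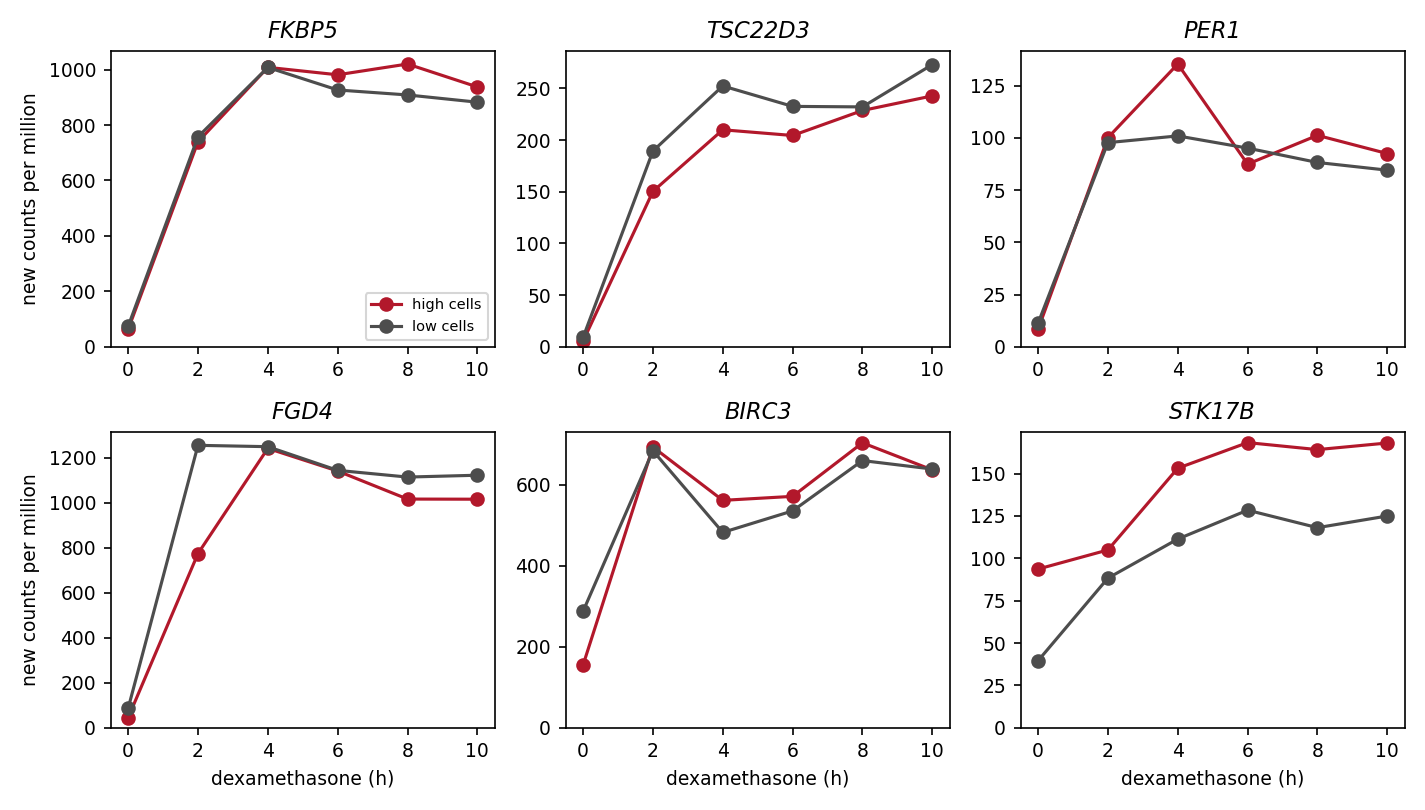
New RNA level (CPM, linear scale) of FKBP5, TSC22D3, PER1, FGD4, BIRC3 and STK17B against hours of dexamethasone, in high (red) and low (grey) cells, 1 point per time. FKBP5 goes from 62.8 CPM at 0 h to 739 at 2 h in high cells and from 73.8 to 757 in low cells.

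The largest differences in new RNA of high cells involved genes with 0 or 1 count at 0 h, so they are bounds or wide intervals. CDKN1C, a CDK inhibitor, had 0 new counts at 0 h and was at least 16.7-fold higher after treatment, with 3 counts over the 0 h sum as the floor, EDN3 (endothelin 3) at least 13.3-fold and ETNK2 at least 12.7-fold. SLC16A12 and JPH2, with 1 count each, had ratios of 77.6 (95% counting interval 13.9 to 3071) and 66.1 (11.8 to 2617). In the lower direction stood IL11, a cytokine, at -3.99 ± 0.80, ST8SIA4 (-2.92 ± 0.34), TRIML2 (-2.70 ± 0.38), PDE1C (-2.39 ± 0.50) and NAV3 (-2.35 ± 0.39). With DESeq2, IL11, PDE1C and NAV3 did not pass, with adjusted p of 0.753, 0.302 and 0.0948.

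The median score of the high cells cannot be read for a change with dexamethasone, since the highest-scoring cells were taken anew at each time. The median of all A549 cells, which does not depend on that choice, was 4582, 4791, 4348, 4025, 4119 and 3295 CPM from 0 to 10 h. With 1 culture per time, dexamethasone cannot be told apart here from time in culture or barcode set. In the cytokinesis list CDC42EP3, an effector of the GTPase Cdc42, was called higher after treatment in whole and in new RNA of high cells. It was 1 of 18 genes tested in each, against 0.485% and 3.00% of all genes higher. In low cells 1 of 18 was also called higher in each, and 1 lower in new RNA. The test of the difference between high and low cells called 0 of the 18 in either RNA.

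Whether the dexamethasone response differed between high and low cells was tested directly. In whole RNA 0 of 19035 genes were called in either direction by edgeR, with 993 at an unadjusted p under 0.05, and DESeq2 called 2 higher and 3 lower. In new RNA 1 of 14764 genes (0.00677%) was called, with 955 at an unadjusted p under 0.05. That gene was BIRC3, an inhibitor of apoptosis in NF-kappaB signalling, whose response was larger in high cells by 1.00 ± 0.12 on the log2 scale (edgeR adjusted p = 0.0022). Its new RNA was 155, 693, 562, 572, 704 and 637 CPM from 0 to 10 h in high cells, and 288, 684, 483, 536, 660.0 and 639 in low cells, so the groups stood furthest apart at 0 h, and the call rests on that single culture. With the tenth of cells scoring highest as members, 0 genes were called. STK17B, a kinase, had the smallest p in whole RNA but did not pass (-1.02 ± 0.14, adjusted p = 0.13).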

How the data were processed

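Newly made and whole transcripts of A549 cells were measured by sci-fate. The authors deposited counts per gene and cell for whole and for newly made RNA, with a doublet score per cell. The submitters' processing notes name Picard 1.105, SAMtools 1.3, STAR 2.5.2b, Trim Galore 0.4.1 and the builds mm10 and hg19. How a read was called new was not given in the sources used here. Likewise the authors deposited the doublet score without its method. Pre-existing counts are whole minus new counts. A549 cells had medians of 27080.5 whole and 5539 new counts, and no cell name was repeated.

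Counts were summed over the high and over the low cells of each time and tested with edgeR 4.0.16 (R 4.3.3, limma 3.58.1): TMM scaling, the filterByExpr filter at a minimum count of 10, quasi-likelihood tests and Benjamini-Hochberg adjustment over all genes tested, a gene being called at an adjusted p under 0.05. High and low cells of a time share a culture, so the time was a block, except in the test of the ratio. The ratio of new to pre-existing RNA was tested as an interaction over 24 sums, each scaled on its own, so it is relative to all genes. It had a term for each group of cells and 1 for new RNA, but none for new RNA by time. Labelling that differs between cultures was thus not blocked, and its p-values take no account of the pairing of high and low cells. The SE of a log2 difference was not taken from the model but worked back from the test, as its size divided by the square root of the F value. CPM are counts-per-million of the summed whole or new counts. Cell measures were compared by exact sign-flip permutation tests over 6 pairs, adjusted over 10 measures, 3 of which were added after the data were seen. DESeq2 1.42.0, other filters, other cut-offs and scores, thinning, and leaving out each time were alternatives. The scripts were tested on simulated counts.

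Genes were named by a rule on the size of called differences: the 12 largest and 8 smallest in whole RNA (at least 600 counts, the same sign in 6 of 6 times), 8 and 6 in new RNA (at least 300 new counts), 6 and 6 in the ratio, 5 and 5 for dexamethasone in new RNA (at least 100 new counts), the 5 smallest p of each interaction, and of each list the 4 with most counts and the largest called; other list members were picked from the lists for their role after their values were seen. The members and the lists were chosen with earlier results of these data known. CKS1B and RBL1, whose symbols belong to several gene identifiers, were left out of named genes. Mitochondrially encoded genes and promoter sequences were not analysed here.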

Additional observations from a re-analysis of the deposited data

Results flagged for a closer look

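TROAP was the 1 series of 42 tested, each of 6 times, with an outlying value. Its log2 ratio of high-cell over low-cell CPM in new RNA was 4.60 at 10 h, against 2.76 to 3.39 at the other 5 times, a gap wide enough to pass Dixon's test for an outlying value. Chance flags about 1 series in 20, so 1 of 42 is no more than chance gives.

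BIRC3 was the 1 gene whose response to dexamethasone in new RNA differed between high and low cells by the test of the difference itself, by 1.00 ± 0.12 on the log2 scale (edgeR adjusted p = 0.0022). The response was 2.09 in high and 1.13 in low cells. Both are taken against 1 culture at 0 h, where new RNA stood at 155 CPM in high and 288 in low cells, so 1 culture without a replicate sets the call. With the tenth of cells scoring highest as members, 0 genes were called higher.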

How the results depend on the processing

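The 12 largest and 8 smallest differences in whole RNA kept their call and direction under every alternative tried. Other list members named in the text were not followed through the alternatives. HSD11B2 in new RNA did not pass without the block (adjusted p = 0.0528), and ZNF804A and TTPA in the ratio did not pass with the tenth of cells scoring highest as members (0.0549 and 0.0619), nor did ZNF804A without the 0 h culture or TTPA with members chosen on pre-existing counts. PDE1C after dexamethasone did not pass without the 4 h or the 6 h culture.

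Counts of called genes moved more. Without the replicate block, genes lower in whole RNA numbered 2329 instead of 3771, and in new RNA 1372 were higher instead of 2179 and 1424 lower instead of 2574. With DESeq2 the latter were 1241 and 1688, and in whole RNA 2936 were higher and 2642 lower. For a higher ratio of new to pre-existing RNA, 908 genes became 535 with no low-count filter, 410 against all other cells, and 581 to 743 when each culture was left out; for a lower ratio, 1376 became 627 with the tenth, where 941 were higher.

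For dexamethasone in whole RNA, 82 higher genes became 409 with no filter, 301 with DESeq2 and 31 to 611 when a culture was left out, and 30 lower genes 225, 105 and 9 to 450, or 18 with the tenth. In new RNA 392 higher genes became 637 with no filter and 292 to 718 when a culture was left out, and 230 lower genes 408 with no filter, 141 with DESeq2, 115 with the tenth and 122 to 487. For the difference of that response in whole RNA, 0 higher and 0 lower genes became 89 and 34 with no filter, 2 and 3 with DESeq2, 1 higher with the tenth, and 0 to 2 each when a culture was left out. In new RNA 1 higher and 0 lower became 32 and 10 with no filter, 0 higher with the tenth, and 1 to 2 and 0 to 1. The cause of these moves was not tested.

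The difference in histone share, -0.00312 percentage points, ranged from -0.00990 to 0.00160 when a culture was left out, and turned positive without 0 h (0.000811), 2 h (0.00160) or 4 h (2.8e-05). It was -0.0200 with the tenth, -0.0222 against all other cells and -0.0139 with equal weight. The difference in doublet score, 0.000941, was -0.00479 with the tenth and -0.00360 against all other cells. With 6 pairs the exact permutation test cannot go below p = 0.03125, and no cell measure passed 0.05 after adjustment over 10.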

Other observations

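Other groups known to follow the cell cycle or cell state were mixed in the high cells. Of 14 G1 cyclins and CDK inhibitors tested in whole RNA, 8 were higher and 4 lower (median 0.32), against 24% and 22.9% of all genes tested. CDKN1B, the CDK inhibitor p27, had 36.8, 47.0 and 51.7 CPM as its lowest, median and highest value in high cells and 20.9, 23.2 and 24.7 in low cells, a log2 difference of 1.07 ± 0.06. CDKN2C, the CDK inhibitor p18, was higher by 1.61 ± 0.09 and CCND1, cyclin D1, by 0.44 ± 0.03. CDKN1A, the p53 target p21, was lower, with 19.1, 44.7 and 51.7 CPM in high against 52.4, 91.7 and 102 in low cells (-1.01 ± 0.06), while of all 22 p53 targets 3 were higher and 7 lower (median -0.13). MDM2 did not pass (0.03 ± 0.03).

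Of 20 immediate early genes, 6 were higher and 9 lower in whole RNA, with a median of 0.0091, against 24% and 22.9% of all genes. MYC was higher by 0.24 ± 0.04, with 83.7 to 105 CPM against 80.2 to 87.6, while CTGF, a target of YAP signalling, was lower (-0.34 ± 0.04), and FOS, at no more than 5.22 CPM in either group, was lower too (-1.69 ± 0.25). Among the A549 markers CDH1, E-cadherin, was lower (-0.50 ± 0.11), KRT8 was lower (-0.20 ± 0.02) and KRT7 higher (0.15 ± 0.03).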
